A study of Homo sapiens with 12 samples.

Results

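The MAP kinase phosphatases and Sprouty proteins studied here are feedback inhibitors of MAP kinase signalling, and they were followed across a treatment of human lens epithelial cells with a naphthalene metabolite. The members were chosen by symbol, with earlier results of these data known, so counts of members called are descriptions. They are 8 dual-specificity phosphatases (DUSP1, DUSP2, DUSP4, DUSP5, DUSP6, DUSP8, DUSP10 and DUSP16) and 2 Sprouty genes (SPRY2 and SPRY4), 10 of the 60641 symbols in the count table. All 10 had enough counts to be among the 17889 genes tested. DUSP2 passed only through the DHN libraries, with 76 to 124 counts there and 3 to 18 counts in each of the other libraries, so it had to differ there to be tested. The cells were SRA01/04, a single immortalised line of human lens epithelium, and RNA was sequenced after 24 hours in 4 groups of 3 libraries. NC cells were given neither compound, NC-A cells asparagine, DHN cells 1,2-DHN (1,2-dihydroxynaphthalene, which oxidises to a quinone), and DHN-A cells 1,2-DHN plus asparagine. The sources used here give neither the doses nor the order of addition. Nothing in the labels says that libraries came from separate cultures, so the spread behind each p-value is that of these samples alone and may be technical.

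MAP kinases (ERK, JNK and p38) are switched on by phosphorylation of a threonine and a tyrosine, and MAP kinase phosphatases switch them off by removing both phosphates. DUSP1, DUSP2, DUSP4 and DUSP5 are inducible nuclear enzymes, DUSP6 is a cytoplasmic enzyme that prefers ERK, and DUSP8, DUSP10 and DUSP16 prefer JNK and p38. Sprouty proteins act further upstream, between growth factor receptors and RAF. Many of these genes are themselves switched on by MAP kinase signalling, which closes a feedback loop. In the lens, FGF signalling through ERK drives epithelial cells towards fibre cells, and Sprouty genes restrain it.

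The promoters of 3 members are shown because these genes had the largest relative rise with 1,2-DHN (DUSP2), the highest level (DUSP1) or the most matches to a cyclic AMP response element (DUSP8). Each line is the 250 bases before the transcription start in RefSeq (GRCh38.p14), 5′ to 3′ on the gene's strand, which is the minus strand for these 3 genes. The windows are chr5:172771196-172771445 for DUSP1, chr11:1572272-1572521 for DUSP8 and chr2:96145441-96145690 for DUSP2; the DUSP2 window overlaps an exon of AC012307.1 in GENCODE release 29, and the DUSP8 start in RefSeq lies upstream of the GENCODE gene. Capitals mark matches to the cyclic AMP response element TGACGTCA, its shorter core TGACG (which every full element contains) or the antioxidant response element core TGACNNNGC, on either strand.
DUSP1: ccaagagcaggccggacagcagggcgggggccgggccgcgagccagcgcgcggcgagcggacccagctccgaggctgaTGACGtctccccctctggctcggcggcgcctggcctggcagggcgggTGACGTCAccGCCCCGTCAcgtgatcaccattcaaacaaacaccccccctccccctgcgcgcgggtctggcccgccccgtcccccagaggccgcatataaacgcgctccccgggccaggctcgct
DUSP8: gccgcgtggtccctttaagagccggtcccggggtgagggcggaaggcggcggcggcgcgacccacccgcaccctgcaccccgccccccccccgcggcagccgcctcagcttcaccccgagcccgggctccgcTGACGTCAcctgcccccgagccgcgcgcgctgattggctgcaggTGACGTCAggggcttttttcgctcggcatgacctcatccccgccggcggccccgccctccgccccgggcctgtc
DUSP2: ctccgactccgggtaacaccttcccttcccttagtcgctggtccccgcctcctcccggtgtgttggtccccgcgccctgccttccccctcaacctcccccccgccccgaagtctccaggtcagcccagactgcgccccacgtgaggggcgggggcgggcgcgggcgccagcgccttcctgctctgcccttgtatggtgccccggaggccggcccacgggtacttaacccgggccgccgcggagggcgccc
The full element TGACGTCA was found once in the DUSP1 window, at 125 to 118 bases before the start, and in the DUSP8 window at 118 to 111 and at 74 to 67 bases before the start. The 8 members with a RefSeq promoter have 11 windows, since DUSP10 and SPRY2 have several starts. The full element lay in 2 of these 11 windows and in 1.65% of all 35116 windows of the same length. The core TGACG lay in 4 of the 11 windows (1 each of DUSP1, DUSP8, SPRY2 and SPRY4) and in 21.2% of all windows. The antioxidant core lay in 2 of the 11, those of DUSP1 and SPRY4, and in 10.9% of all windows. No member window held the AP-1 letters TGANTCA (6.57% of all windows), a heat shock element of alternating GAA and TTC triplets (0.441%), the ATF4 and CEBP composite TGATGNAA (3.14%) or an SRF CArG box (1.16%). The DUSP2 window held none of the letters searched. These are matches of letters in 1 window per start; binding was not measured. DUSP4 and DUSP5 had no RefSeq window here, so they were not searched and are not shown.

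Libraries held 12381071 to 27526206 counts, and mitochondrial transcripts took 2.73% to 3.23% of them. NC-A 1 stood apart on the first principal component (33.9% of variance, 65.1 against 10.4 and 12.5 for NC-A 2 and NC-A 3), and without it the number of members called was the same in each of the 6 comparisons. Of 20 lens markers 9 had enough counts for a test: the lens transcription factors PAX6 and SIX3 were at means of 25.9 and 12.6 CPM (counts per scaled library size) over all libraries, whereas the fibre cell gene MIP and the crystallin CRYAA were at 0.0278 and 0.0237. The summed level of 10 fibroblast markers (8 tested, led by VIM and COL1A1 at means of 2872 and 1005 CPM, with DCN and LUM at 0.0426 and 0.0976) was at 4889 to 4925 CPM for NC and 4740 to 4805 for NC-A, against 3150 to 3186 for DHN and 4359 to 4398 for DHN-A. This sum, led by VIM, does not show that the line holds fibroblasts. It was lowest in the DHN libraries, in which most members were highest, and its part in the results below was not tested. The summed lens markers were at 172 to 189.9 CPM over all libraries, most of it from GJA1 at a mean of 125 CPM. Summed markers of immune cells (4 of 10 tested) were at 6.51 to 7.10 CPM in NC and 8.67 to 10.3 in DHN. They were at 6.06 to 6.26 in NC-A and 7.37 to 8.93 in DHN-A, led by CSF1R (mean 4.48), with PTPRC at 0.276. Keratinocyte and pigment cell markers (2 and 4 of 10 tested) were at 36.5 to 45.3 and 7.77 to 10.8 CPM over all libraries. The keratinocyte sum came mostly from KRT10 (mean 32.4 CPM) and KRT15 (7.26), with KRT5 at 0.0111 and KRT14 at 0.126. MITF (6.84) led the pigment cell sum. In RNA from whole cultures, fewer cells of a type and less RNA per cell cannot be told apart.

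Untreated cells already expressed most of the feedback genes, with DUSP1 well above the rest. On the scale of RPKM (CPM per kilobase of the deposited gene length), DUSP1 was at 99.1 ± 2.93 in NC (mean ± SD, n = 3), above 98.2% of the tested genes. DUSP5 followed at 31.2 ± 0.538 and DUSP4 at 26.3 ± 1.33. DUSP6 (18.2 ± 0.440) and SPRY4 (15.9 ± 1.05) came next, and DUSP16 (6.26 ± 0.0697) and SPRY2 (6.19 ± 0.354) could not be ordered beyond their spread. DUSP10, at 4.84 ± 0.257, lay below them. DUSP8 (0.801 ± 0.0297) and DUSP2 (0.174 ± 0.0658) were the lowest. In DHN the order by RPKM differed at 2 places, with SPRY4 (17.3 ± 0.349) above DUSP6 (15.7 ± 0.645) and DUSP2 (2.93 ± 0.283) above DUSP8 (1.29 ± 0.0504).

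**Figure D1:**
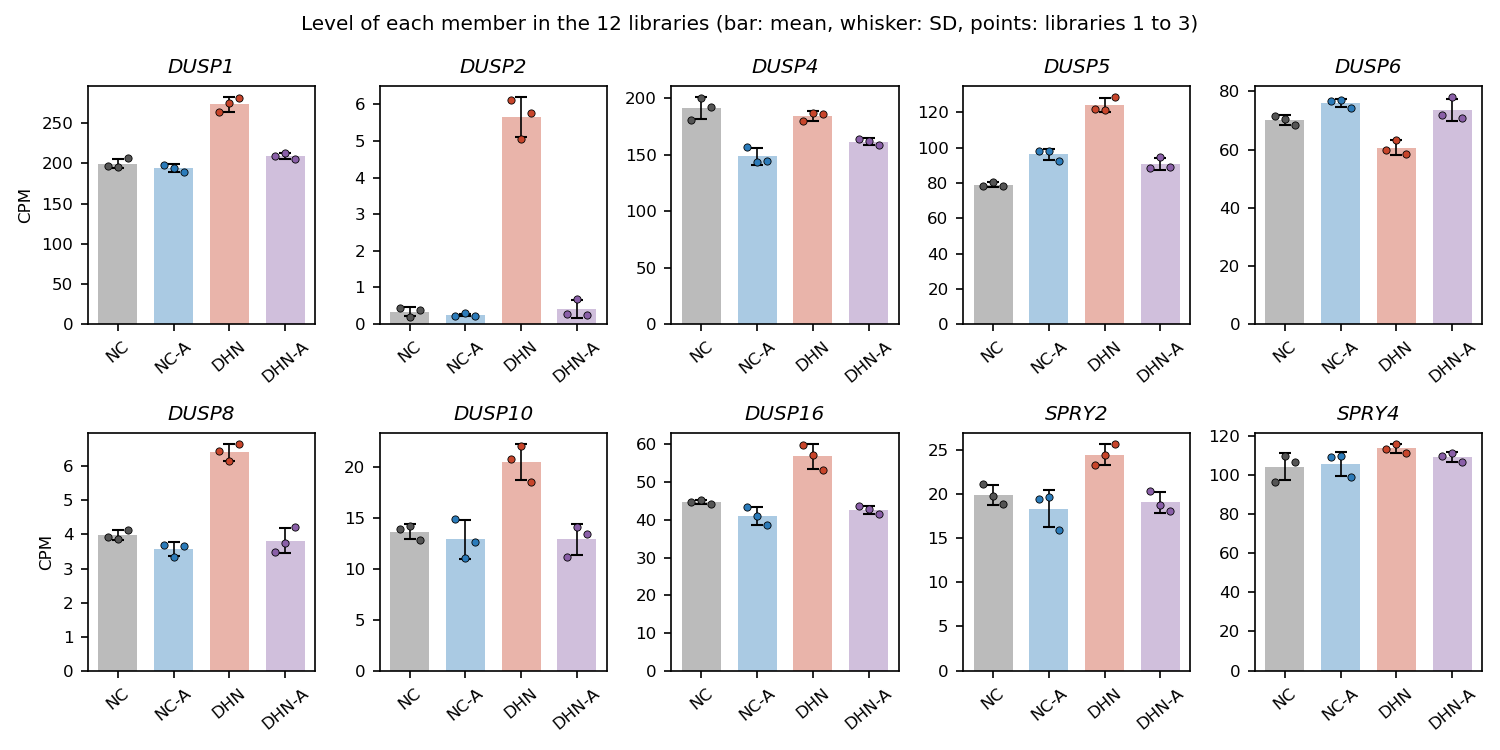
Each panel plots the CPM of 1 member (linear axis from 0) in the 12 libraries by group: points are libraries, bars the mean and whiskers the SD (n = 3). DUSP2 stands at 5.05 to 6.12 CPM in DHN and at 0.193 to 0.688 elsewhere, and DUSP6 is the member whose DHN libraries are the lowest.

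The effect of 1,2-DHN in the absence of asparagine was read from DHN against NC. Of the 10 members 8 rose and 1 fell (edgeR's quasi-likelihood test, Benjamini-Hochberg adjusted p under 0.05), against 38.7% of all tested genes called in either direction, 19.7% higher and 19.0% lower. Without DUSP2, which had to be high in DHN to be tested, 7 of 9 rose and 1 fell. The median change of these 9 was 0.34 on the log2 scale, and that of all tested genes 0.0073. The groups did not overlap for 9 of the 10, DUSP2 among them, and for 46.2% of all tested genes. The summed CPM of the members went from a mean of 727 CPM (SD 16.7, n = 3) to one of 869.8 (SD 12.3, n = 3).

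DUSP2 (PAC1), an inducible nuclear phosphatase of ERK and p38 best known from activated lymphocytes, had the largest change. It lies on chromosome 2 from 96143166 to 96145440 (GENCODE release 29, GRCh38, as for all gene coordinates here). NC libraries 1, 2 and 3 held 7, 4 and 9 counts of it (0.435, 0.193 and 0.380 CPM) and DHN libraries 76, 106 and 124 (6.12, 5.05 and 5.76 CPM). Every DHN library was above every NC library. The change was 4.06 ± 0.33 (log2 change ± SE, as for all changes below), or 16.7-fold, given as a description because the filter kept DUSP2 only through its DHN libraries. With no filter on low counts it was 4.04 and was also called. With so few counts in NC, the size of the fold is set largely by 20 reads in 3 libraries.

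DUSP1 (MKP-1), the immediate early phosphatase of p38 and JNK on chromosome 5 from 172768090 to 172771195, was at 197, 196 and 206 CPM in NC libraries 1, 2 and 3 and at 264, 275 and 281 in DHN. The groups lay far apart relative to their spread, and the rise was 0.45 ± 0.039 (37.0%, edgeR adjusted p = 1.39e-13). DUSP5, a nuclear phosphatase specific to ERK on chromosome 10 from 110497838 to 110511544, was at 78.1, 80.6 and 78.3 CPM in NC and at 122, 122 and 129 in DHN. It rose by 0.65 ± 0.046 (57.2%, adjusted p = 1.83e-16), again with no overlap of the groups; the pseudogene DUSP5P1 held 11 to 44 counts per library. DUSP4 (MKP-2), the relative of DUSP1 and DUSP2, was at 181, 200.2 and 192 CPM in NC and at 179.7, 187 and 186 in DHN. These libraries overlapped, and the change was -0.052 ± 0.042 (adjusted p = 0.366), with a 95% interval of -0.13 to 0.031. Of the 4 inducible nuclear phosphatases DUSP1 and DUSP5 rose, and no change was detected for DUSP4. DUSP2 is not counted here, as it had to be high in DHN to be tested.

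DUSP6 (MKP-3), the cytoplasmic phosphatase of ERK on chromosome 12 from 89347232 to 89353271, was the member that fell. It was at 71.6, 70.5 and 68.3 CPM in NC and at 60.0, 63.4 and 58.6 in DHN. All DHN libraries were below all NC libraries, with a change of -0.21 ± 0.051 (-13.4%, edgeR adjusted p = 0.00096). In GENCODE release 29 exons of AC024909.2 on the opposite strand cover 40.5% of the exon bases of DUSP6, and the sources used here do not say whether the counting used strand; without it, reads of the 2 genes cannot be told apart.

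DUSP8, DUSP10 and DUSP16, the members that prefer JNK and p38 over ERK and are not among the inducible nuclear enzymes, each rose. DUSP10 (MKP-5), on chromosome 1 from 221701424 to 221742176, was at 14.0, 14.2 and 12.8 CPM in NC and at 20.9, 22.1 and 18.6 in DHN (0.59 ± 0.10, 50.2%, adjusted p = 5.09e-06). DUSP8, on chromosome 11 from 1554044 to 1571920, was at 3.92, 3.86 and 4.14 CPM in NC and at 6.45, 6.15 and 6.65 in DHN (0.69 ± 0.16, 61.1%, adjusted p = 0.000426). DUSP16 (MKP-7), on chromosome 12 from 12474210 to 12562383, was at 44.1 to 45.1 CPM in NC and at 53.3 to 60.0 in DHN (0.34 ± 0.058, 26.8%, edgeR adjusted p = 3.85e-06). For each of these 3 genes the lowest DHN library was above the highest NC library. The pseudogene DUSP8P5, whose reads may be shared with DUSP8, had a mean of 2.79 CPM in NC (SD 0.174, n = 3) and 3.05 in DHN (SD 0.714, n = 3) and was not called (0.13 ± 0.21, edgeR adjusted p = 0.696), so the values of DUSP8 are uncertain to the extent that the authors' counting split such reads.

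Both Sprouty genes were called higher. SPRY2, on chromosome 13 from 80335976 to 80340951, was at 21.1, 19.7 and 18.9 CPM in NC and at 23.3, 24.4 and 25.7 in DHN (0.31 ± 0.084, 23.6%, edgeR adjusted p = 0.0027). SPRY4, on chromosome 5 from 142310427 to 142326455, was at 96.6, 109.9 and 106 CPM in NC and at 113, 116 and 111 in DHN. Its rise of 0.12 ± 0.048 (8.67%) was the weakest call of the members (adjusted p = 0.0414). It was lost with DESeq2 (0.0621), limma-voom (0.0628), no filter on low counts (0.189) or a fit of only the 2 groups (0.0702). It was also lost without NC 1 (0.336), NC-A 2 (0.0504), DHN 1 (0.0658), DHN 2 (0.128) or DHN-A 1 (0.0561).

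The effect of asparagine on cells that also received 1,2-DHN was read from DHN-A against DHN. Of the members 8 fell and 1 rose, and without DUSP2 7 of 9 fell and 1 rose, against 41.7% of all tested genes called, 20.8% lower and 20.9% higher. The groups did not overlap for 10 of 10 members, and for 51.3% of all tested genes. These 10 include DUSP2, which had to be high in DHN to be tested. The median of the members without DUSP2 was -0.39, that of all tested genes 0.0091, and the summed level of the members in DHN-A was 723 ± 15.6 CPM (mean ± SD, n = 3). This comparison shares the DHN libraries with DHN against NC, so its changes are not an independent repeat of those above with the sign turned.

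DUSP2 was at 8, 18 and 6 counts in DHN-A libraries 1, 2 and 3 (0.288, 0.688 and 0.248 CPM). All were far below the DHN libraries, and the fall was 3.76 ± 0.30 on the log2 scale, or 13.6-fold, again as a description (-3.74 with no filter, also called). DUSP1 was at 209.5, 212 and 205 CPM in DHN-A (-0.39 ± 0.038, adjusted p = 1.32e-11). DUSP5 was at 88.5, 94.9 and 89.0 CPM (-0.45 ± 0.044, adjusted p = 1.01e-11). Both lay below every DHN library. DUSP4, which had not been called with 1,2-DHN, was at 164, 162 and 158 CPM in DHN-A and fell by 0.19 ± 0.042 (adjusted p = 0.000209).

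DUSP6 was at 71.8, 77.9 and 70.9 CPM in DHN-A and rose by 0.28 ± 0.050 (21.2%, edgeR adjusted p = 1.22e-05). It was the member that rose, as it was the member that fell with 1,2-DHN. Of the members that prefer JNK and p38, DUSP8 was at 3.49 to 4.22 CPM in DHN-A and fell by 0.75 ± 0.16, DUSP10 was at 11.1 to 14.1 and fell by 0.67 ± 0.099, and DUSP16 was at 41.5 to 43.7 and fell by 0.41 ± 0.057 (edgeR adjusted p = 9.41e-05, 2.68e-07 and 8.56e-08). SPRY2 fell by 0.36 ± 0.082 to a mean of 19.0 CPM (SD 1.19, n = 3, edgeR adjusted p = 0.000291). SPRY4 was at 106.6 to 111.3 CPM and was not called (-0.057 ± 0.047, adjusted p = 0.354), although its DHN-A libraries lay just below its DHN libraries.

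The effect of asparagine alone was read from NC-A against NC. Of the members 1 rose and 1 fell, against 20.2% of all tested genes called, 9.32% higher and 10.9% lower, so the share of members called was near the background. The groups did not overlap for 5 members, and for 33.7% of all tested genes. DUSP4 was at 157, 144 and 144 CPM in NC-A against 181, 200.2 and 192 in NC. It fell by 0.37 ± 0.043 (-22.4%, edgeR adjusted p = 7.68e-09), its largest change in any of the comparisons. DUSP5 was at 98.1, 98.2 and 92.7 CPM in NC-A and rose by 0.28 ± 0.047 (21.8%, adjusted p = 1.03e-05), and no NC-A library of either gene overlapped the NC libraries. DUSP6 was at 76.5, 77.2 and 74.3 CPM and was not called (0.12 ± 0.051, adjusted p = 0.105). DUSP2 was at 0.222, 0.291 and 0.230 CPM (3, 4 and 4 counts), too few to show a change (-0.42 ± 0.55, 95% interval -1.49 to 0.65). The other 6 members had changes between -0.15 and 0.016, none called.

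With asparagine in both groups, the effect of 1,2-DHN was read from DHN-A against NC-A. None of the 10 members was called (edgeR; 2 of them, DUSP1 and DUSP4, at an unadjusted p under 0.05; 0 with DESeq2 and 0 with limma-voom), against 2.10% of all tested genes, 0.805% higher and 1.29% lower. The groups did not overlap for 2 members, DUSP1 and DUSP4, and for 18.4% of all tested genes. DUSP1 was at 0.11 ± 0.039 (95% interval 0.032 to 0.19, edgeR adjusted p = 0.165) and DUSP4 at 0.12 ± 0.043 (0.039 to 0.21, adjusted p = 0.144). DUSP5 was at -0.084 ± 0.046 (-0.17 to 0.0063) and DUSP10 at -0.0013 ± 0.11 (-0.21 to 0.21). DUSP2 was at 0.72 ± 0.51, with an interval of -0.28 to 1.71, which does not exclude a 3.27-fold rise.

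Whether the change with 1,2-DHN differed between cells with and without asparagine was tested by the interaction, the log2 change in asparagine-fed cells less that in unfed cells. It was called for 6 members, 5 lower and 1 higher, against 25.7% of all tested genes (12.5% lower, 13.2% higher). Without DUSP2, which was tested only because it is high in DHN, 5 of 9 were called, 4 lower and 1 higher. DUSP2 was at -3.34 ± 0.70 (-3.29 with no filter, also called). DUSP5 was at -0.74 ± 0.065, DUSP10 at -0.59 ± 0.15, DUSP1 at -0.35 ± 0.055 and DUSP16 at -0.28 ± 0.084 (edgeR adjusted p = 1.15e-12, 0.00183, 2.98e-06 and 0.00861). DUSP16 lost its call with no filter on low counts (0.0741). DUSP4 was the member with a higher value, at 0.18 ± 0.060 (adjusted p = 0.0252). That call was lost without NC 2 (0.0800), NC-A 2 (0.0769), NC-A 3 (0.0772), DHN 1 (0.0866) or DHN-A 1 (0.0616). DUSP8 (-0.60 ± 0.23, adjusted p = 0.0539), DUSP6 (0.16 ± 0.072, 0.0982), SPRY2 (-0.24 ± 0.12, 0.150) and SPRY4 (-0.072 ± 0.067, 0.498) were not called. DUSP8 was called with limma-voom (0.0408) or without DHN-A 3 (0.0405), and SPRY2 without NC-A 3 (0.0445).

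**Figure D2:**
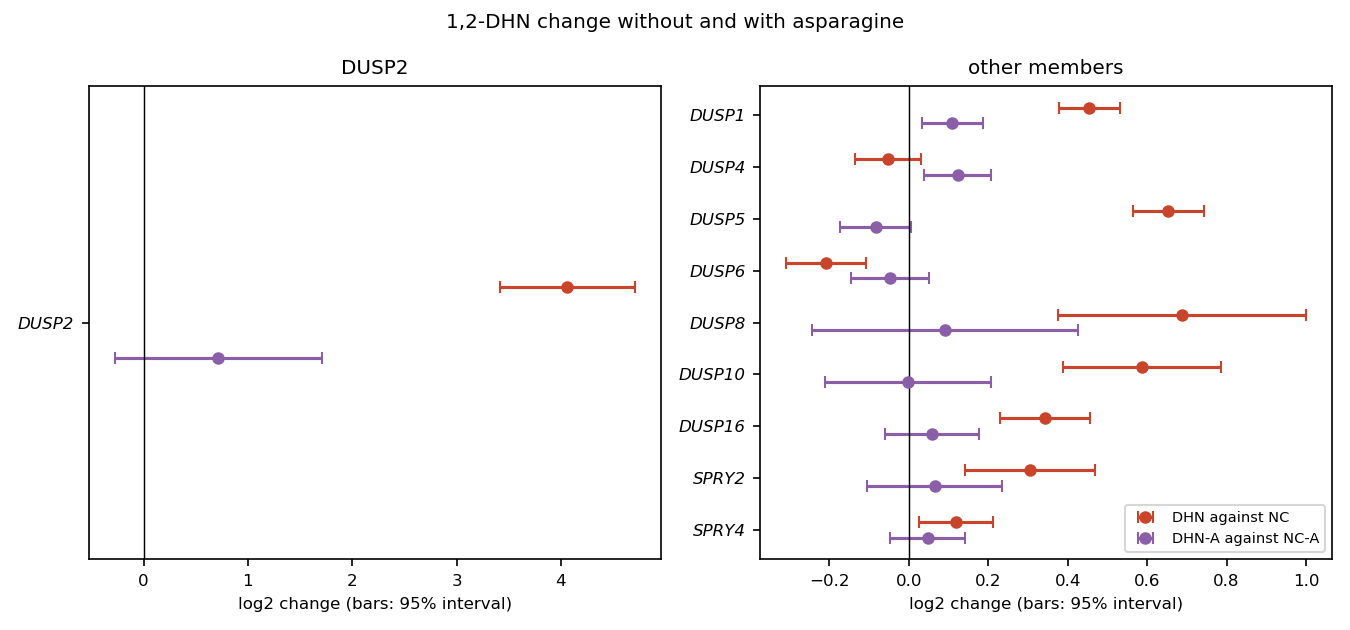
Points are log2 changes with 1,2-DHN for each member, without asparagine (DHN against NC) and with it (DHN-A against NC-A), and bars are 95% intervals; DUSP2 has an axis of its own. DUSP5 is at 0.65 without and -0.084 with asparagine, and DUSP4 is at -0.052 without and 0.12 with it, neither called.

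DHN-A against NC compared cells given both compounds with cells given neither. The same 2 members as in NC-A against NC were called: DUSP4 fell by 0.24 ± 0.042 (edgeR adjusted p = 1.70e-05) and DUSP5 rose by 0.20 ± 0.045 (adjusted p = 0.000887), against 21.1% of all tested genes called, 9.83% higher and 11.2% lower. The groups did not overlap for 3 members, DUSP4, DUSP5 and DUSP16, and for 35.0% of all tested genes. The 2 comparisons share the NC libraries. DUSP2 was at 0.30 ± 0.44 (95% interval -0.56 to 1.16), and the other 7 members had changes between -0.082 and 0.070. DUSP1 was at 0.067 ± 0.039 and DUSP6 at 0.070 ± 0.049, both with libraries that overlapped NC.

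Ratios of 2 members within a library do not depend on how libraries are scaled. The count of DUSP1 over that of DUSP6, a nuclear against a cytoplasmic phosphatase, was 2.75, 2.77 and 3.02 for NC libraries 1, 2 and 3 and 2.59, 2.52 and 2.54 for those of NC-A. It was 4.40, 4.34 and 4.80 for DHN libraries and 2.92, 2.73 and 2.90 for those of DHN-A. The DHN libraries stood above all others, and those of DHN-A and NC overlapped. The count of DUSP5 over that of DUSP6, both enzymes of ERK, was 1.13 ± 0.0311 (mean ± SD, n = 3) for NC, 1.27 ± 0.0179 for NC-A, 2.05 ± 0.139 for DHN and 1.24 ± 0.0187 for DHN-A. DUSP4 over DUSP6 followed another order, at 2.73 ± 0.174 for NC and 3.04 ± 0.125 for DHN, against 1.95 ± 0.0955 for NC-A and 2.20 ± 0.108 for DHN-A. The ratio was lower in both groups given asparagine than in both groups without it. SPRY2 over SPRY4 was 0.177 to 0.219 for NC and 0.205 to 0.230 for DHN, which overlap. It was 0.161 to 0.179 for NC-A and 0.169 to 0.186 for DHN-A, so every DHN library lay above both groups given asparagine.

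**Figure D3:**
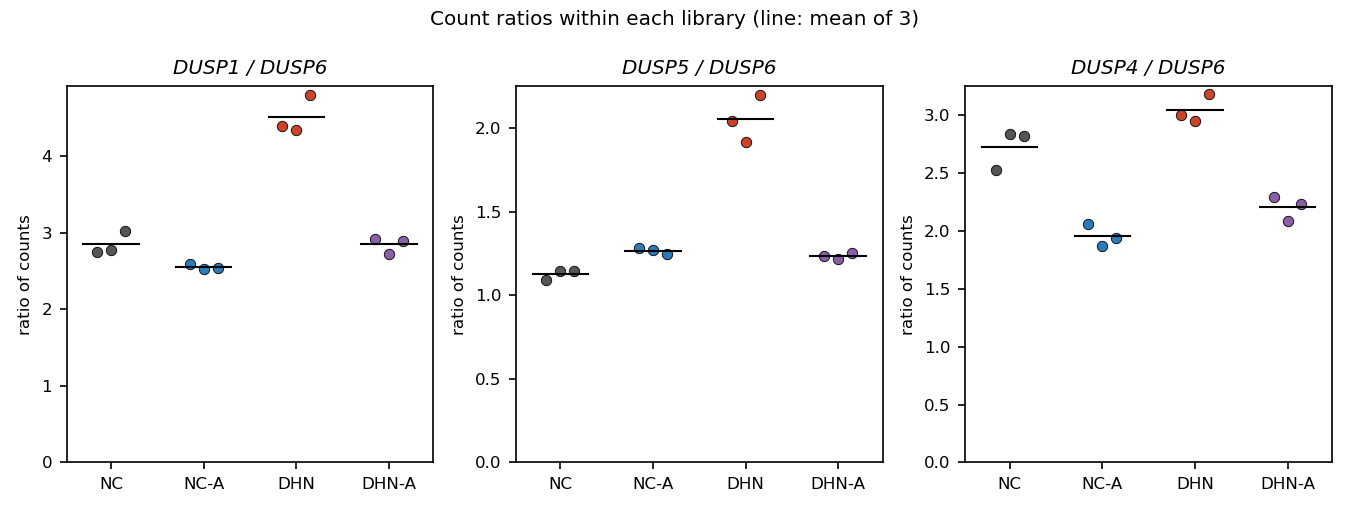
Points are count ratios of DUSP1, DUSP5 and DUSP4 to DUSP6 in each library (linear axes from 0) by group, and lines are the means of 3 libraries. DHN libraries are the highest in all 3 panels, at 4.34 to 4.80, 1.92 to 2.20 and 2.95 to 3.18.

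Levels of the members across the 12 libraries are described here by Pearson's r on log2 CPM, with no test, since all pairs share the libraries and the 4 group means. DUSP1 had r = 0.949 with DUSP8 and 0.916 with DUSP16, and -0.876 with DUSP6. DUSP4 had 0.467 with DUSP1 and 0.0246 with DUSP5. DUSP1 and DUSP2 had 0.972. DUSP2 passed the filter only through its DHN libraries, so its r values, here and below, largely restate that it is high there. Among 12070 other genes whose mean count reached 50, the pattern most like that of DUSP1 was that of SGTA, a cochaperone (r = 0.990), and then of HSPA6, an inducible HSP70 (0.987). For DUSP2 (12071 candidates) it was BANP (0.987) and FKBP4, an HSP90 cochaperone (0.986), and for DUSP5 SESN2, a stress-inducible sestrin (0.985), and ARHGEF2 (0.980). For DUSP10 it was the kinase DYRK1A (0.985) and MED13L, a Mediator subunit (0.958), for DUSP8 UBN1 (0.984) and HIP1R (0.983), and for DUSP16 HECA (0.980) and DIAPH1, a formin (0.975). For DUSP6 it was POT1, a telomere protein, and SUMF1 (both 0.973), for DUSP4 IDH3G (0.964) and HIVEP2 (0.959), and for SPRY2 SYNJ1 (0.958) and SLC66A1 (0.948). SPRY4 had the least similar partners, TEX30 (0.900) and CHAMP1 (0.883).

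The other genes of the pathway were counted by list. These lists too were made with earlier results of these data known, so the counts are descriptions. They are to be read against all tested genes: 19.7% rose and 19.0% fell in DHN against NC, and 20.9% rose and 20.8% fell in DHN-A against DHN. Of the remaining MAP kinase phosphatases, DUSP7, a cytoplasmic relative of DUSP6, rose in DHN against NC from 27.1 to 38.4 CPM (0.50 ± 0.071, edgeR adjusted p = 1.11e-07), opposite to DUSP6, and DUSP9 was not called. DUSP7 fell in DHN-A against DHN (-0.42 ± 0.069). Of 5 tested Sprouty and SPRED genes outside the members 1 rose and 2 fell with 1,2-DHN: SPRED3 at 0.24 ± 0.061, SPRED2 at -0.17 ± 0.060 and SPRED1 at -0.16 ± 0.053, relatives of Sprouty that inhibit RAF activation. SPRED1 lost its call without DHN 1 (0.0760), and SPRED2 without NC 1 (0.111), DHN 2 (0.0556) or DHN 3 (0.130). Of 11 tested atypical dual-specificity phosphatases 1 rose (DUSP14, 0.56 ± 0.080) and 1 fell (DUSP23, -0.33 ± 0.099, a call lost without NC 3, edgeR adjusted p = 0.0855).

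Of the kinases that these phosphatases act on, 1 of 10 rose and 1 fell in DHN against NC. MAPK3, which is ERK1, fell by 0.29 ± 0.056, and MAPK8, which is JNK1, rose by 0.20 ± 0.063, a call lost without NC 1 (0.0552) or NC 3 (0.144). Of 6 tested MAP kinase kinases 2 rose and 2 fell. MAP2K3, which activates p38, rose from 103 to 143 CPM (0.48 ± 0.046), MAP2K7, which activates JNK, rose by 0.29 ± 0.046, and MAP2K5, the kinase of ERK5, fell by 0.49 ± 0.094. In DHN-A against DHN 5 of the 6 fell, MAP2K3 by 0.59 ± 0.046, and MAP2K5 rose by 0.49 ± 0.092. Of 16 genes of RAS, RAF and their adaptors 5 rose and 4 fell with 1,2-DHN; RASA1, a RAS GTPase-activating protein, fell by 0.60 ± 0.048, FRS2, the adaptor of FGF receptors, rose by 0.55 ± 0.071, and BRAF rose by 0.32 ± 0.060.

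Of 13 tested receptor tyrosine kinases 3 rose and 6 fell in DHN against NC. Those that fell, named after their values were seen, included AXL from 615 to 452 CPM (-0.45 ± 0.037), MET, the HGF receptor, from 411 to 284 (-0.53 ± 0.037), FGFR1 from 321 to 295 (-0.12 ± 0.037) and EGFR from 315 to 249.9 (-0.33 ± 0.038). ERBB2 (-0.45 ± 0.053) and PDGFRB (-0.41 ± 0.067) were the other receptors that fell. The 3 that rose were FGFR3 at 14.8 CPM in DHN against 7.33 in NC (1.01 ± 0.12), FGFR4 at 5.55 against 3.71 (0.58 ± 0.19) and FGFR2. FGFR2 was at 0.576 CPM in DHN against 0.175 in NC (1.73 ± 0.62), given as a description. Its libraries reached at most 0.249 CPM in NC and 0.443 in NC-A, below the cut of the filter on low counts (0.476 CPM). FGFR2 was thus tested only through libraries given 1,2-DHN. FGFR4 lost its call without NC 1 (0.0593) or DHN 2 (0.0537), and FGFR2 without NC 3 (0.130), DHN 1 (0.0567) or DHN 2 (0.0712), or with no filter on low counts (0.0607). Of 15 tested growth factor ligands 5 rose and 4 fell. HBEGF, a ligand of the EGF receptor, rose from 20.9 to 58.9 CPM (2.83-fold, 95% interval 2.58 to 3.10, edgeR adjusted p = 2.38e-23) and fell in DHN-A against DHN by 1.40 ± 0.065. AREG, another ligand of that receptor, rose from 2.91 to 4.86 CPM (0.74 ± 0.20), and BTC, betacellulin, fell from 1.68 to 0.793 CPM (-1.06 ± 0.31), a call lost without DHN 3 (0.0631).

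The ERK output genes outside the members split by direction. With 1,2-DHN 5 of 10 rose and 4 fell. EGR1, an immediate early transcription factor, rose from 23.2 to 121.5 CPM (2.38 ± 0.059), EPHA4, an ephrin receptor, by 0.66 ± 0.095, and MYC by 0.59 ± 0.046. The 4 that fell, named after their values were seen, were PHLDA1 (-0.35 ± 0.040), CCND1, which is cyclin D1 (-0.28 ± 0.035), FOSL1 (-0.17 ± 0.036) and ETV4 (-0.14 ± 0.046). DUSP6 fell too, whereas 7 of the 9 members other than DUSP2 rose, and a link between DUSP6 and these genes was not tested. The remaining genes of this list that rose, also named after their values were seen, were EPHA2 and IER3. EPHA2 went from 134 CPM in NC to 159 in DHN, and IER3 from 189 to 241. In DHN-A against DHN 4 rose and 5 fell. A further list, called the other feedback inhibitors here, held ERRFI1, LRIG1, CBL, RASA2, IL17RD, SPSB1, SOCS3, TRIB1, KLF2 and PEA15. It is mixed, and not all of its genes are feedback inhibitors of MAP kinase signalling, so its counts do not describe such a class. Of these 10 genes 6 rose and 2 fell with 1,2-DHN, and 1 rose and 6 fell in DHN-A against DHN. PEA15, which holds ERK in the cytoplasm, rose from 183 to 299 CPM (0.71 ± 0.041), TRIB1, a pseudokinase, by 0.69 ± 0.064, and LRIG1, an inhibitor of receptor tyrosine kinases, fell by 0.49 ± 0.074.

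**Figure D4:**
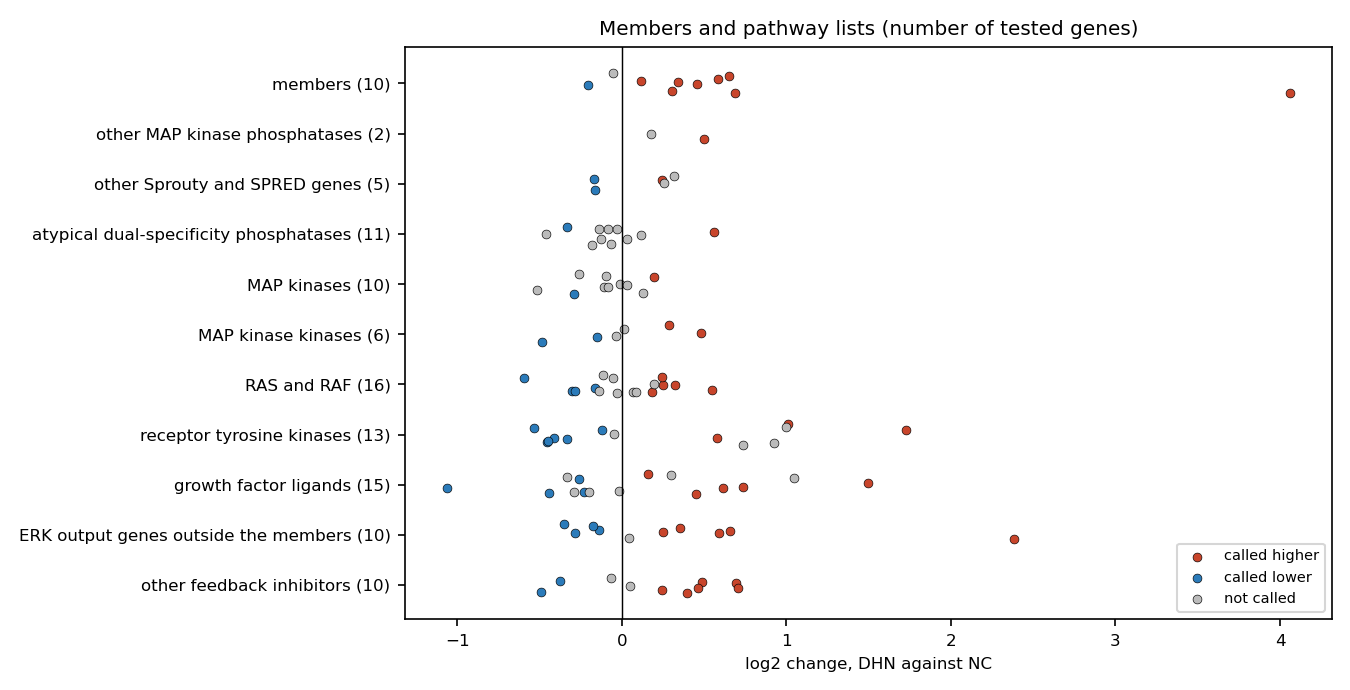
Each point is the log2 change of 1 tested gene in DHN against NC (x axis), in rows for the members and the 10 pathway lists with the number of tested genes in brackets, coloured by the call. DUSP2 lies farthest to the right at 4.06, and the MAP kinases have 1 gene called in each direction.

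The remaining comparisons are given as counts of genes called per list. Of all tested genes 9.32% were higher and 10.9% lower in NC-A against NC, 9.83% and 11.2% when DHN-A was set against NC, 0.805% and 1.29% when it was set against NC-A, and 13.2% and 12.5% in the interaction. With asparagine alone (NC-A against NC), 6 of 13 receptor tyrosine kinases fell and none rose, 4 of 6 MAP kinase kinases fell and none rose, and of the genes of RAS and RAF 1 rose and 5 fell. Among the other feedback inhibitors 3 fell and none rose, and of the ligands 2 rose and 2 fell. Of the ERK output genes 2 rose and 1 fell, 1 MAP kinase and 1 atypical phosphatase rose, and 1 Sprouty or SPRED gene fell. In DHN-A against NC the counts were 0 higher and 4 lower for the receptors, 0 and 3 for the MAP kinase kinases, 1 and 4 for RAS and RAF, 4 and 2 for the ligands, 3 and 0 for the ERK output genes and 1 and 2 for the feedback inhibitors. They were 1 and 1 for the MAP kinases, 1 and 2 for the atypical phosphatases and 0 and 2 for the Sprouty and SPRED genes. In DHN-A against NC-A 4 genes of all 10 lists were called, which were named after their values were seen: EGR1 and MAP2K3 were higher, and the receptor MET and the ligand VEGFA were lower. The interaction was called for 5 receptors higher and 1 lower, 4 and 4 ERK output genes, 2 and 3 ligands, 3 and 2 genes of RAS and RAF, and 1 and 3 feedback inhibitors. It was called for 1 and 1 MAP kinases, 1 and 1 atypical phosphatases, 0 and 2 MAP kinase kinases, 0 and 1 other phosphatases (DUSP7) and no Sprouty or SPRED gene. In DHN-A against DHN the receptors had 4 higher and 2 lower, RAS and RAF 4 and 6, the ligands 4 and 4, the atypical phosphatases 2 and 2, and the MAP kinases 1 and 1. The Sprouty and SPRED genes there had 1 and 2.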

How the data were processed

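The authors deposited unnormalised counts for 12 libraries in 1 table by gene symbol, with each gene's length. Stranded libraries were made from total RNA, per the labels' protocols; per the submitters' processing notes, Bowtie and hg38 were used. The sources used here do not give versions, the counter, the annotation or the strand setting. Counts were fitted with edgeR 4.0.16 in R 4.3.3 (filterByExpr on the 4 groups, TMM factors, robust quasi-likelihood fit, 1 mean per group over all 12 libraries), with Benjamini-Hochberg adjustment over 17889 genes and a threshold of 0.05. SE is the log2 change over the root of its F statistic. CPM, RPKM and log2 CPM (prior count 2) were computed from the counts. As alternatives, the fit was repeated with DESeq2 1.42.0, with limma-voom (limma 3.58.1), with relative log expression factors, with no filter, with only the groups compared, with the replicate number as a block, and without each library. The members and lists were chosen with earlier results of these data known. Named genes are all members, up to 3 called genes per list with the largest change in DHN against NC, and the 2 genes most correlated with each member. No 2 libraries of a group looked like 1 library deposited more than once (mean chi-square per gene of 1.77 to 4.30).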

Additional observations from a re-analysis of the deposited data

Results flagged for a closer look

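The change with 1,2-DHN differed between cells with and without asparagine (edgeR interaction, adjusted p under 0.05) for 6 members. The difference, with asparagine minus without, was -3.34 for DUSP2, -0.74 for DUSP5, -0.59 for DUSP10, -0.35 for DUSP1, -0.28 for DUSP16 and 0.18 for DUSP4 on the log2 scale. DUSP2 rests on 3 to 18 counts per library outside DHN and passed the filter only through its DHN libraries. Among the named genes of the pathway lists the difference was negative for EGR1 (-2.10), HBEGF (-1.54), EPHA4 (-0.88), MYC (-0.69), FGFR3 (-0.68), PEA15 (-0.68) and TRIB1 (-0.63). It was also negative for FRS2 (-0.52), DUSP7 (-0.52), DUSP14 (-0.50), BRAF (-0.36), MAP2K3 (-0.29), MAPK8 (-0.25) and MAP2K7 (-0.21). The call of MAPK8 was lost with DESeq2 (0.0541), with no filter (0.172) and without any 1 of 7 libraries (NC 1, NC 3, NC-A 1, NC-A 3, DHN 2, DHN-A 1, DHN-A 2), and that of MAP2K7 with no filter (0.196). The difference was positive for DUSP23 (0.59), RASA1 (0.45), LRIG1 (0.43) and MAPK3 (0.28). Of all tested genes 25.7% were called in this test.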

How the results depend on the processing

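Over 1067 combinations of a member, a comparison and an alternative, 1034 kept their direction and their side of the threshold, 15 lost a call, 3 gained one and 15 changed sign; none of the calls changed sign. With no filter on low counts SPRY4 turned to -0.014 in NC-A against NC and DUSP10 to 0.030 in DHN-A against NC-A, neither called. With 1 library left out, uncalled values that changed sign ran from -0.037 to 0.063 (SPRY4) and -0.19 to 0.0080 (DUSP10) in NC-A against NC, from -0.090 to 0.11 (DUSP10) and -0.032 to 0.12 (SPRY2) in DHN-A against NC-A, from -0.29 to 0.53 (DUSP2), -0.14 to 0.00066 (DUSP8) and -0.15 to 0.017 (DUSP10) in DHN-A against NC, and from -0.032 to 0.052 (LRIG1) in DHN-A against DHN. All genes called in DHN-A against NC-A ran from 143 to 426 with 1 library left out, against 375; it was 226 without NC-A 2, 170 without NC-A 3, 230 without DHN-A 1 and 143 without DHN-A 2, where a group holds 2 libraries, and the members called stayed at 0. The cause of the sign changes was not tested. Members called in the interaction ran from 5 to 7. No pairing by replicate number was seen: same-numbered libraries had deviations correlated at -0.176 to 0.229, and differently numbered ones at -0.267 to 0.291. Of the 12 libraries 5 correlated best with their own number. With 3 libraries per group this check cannot exclude pairing. With the replicate block the members called were 9, 9, 2, 0, 2 and 6 in the 6 comparisons, as without it, and the genes called were 6805 in DHN against NC, 7361 in DHN-A against DHN and 334 in DHN-A against NC-A. DUSP2 was below the filter when only NC-A and NC, DHN-A and NC-A, or DHN-A and NC were fitted, so that alternative gave no value there. Depth limits DUSP2 most, at 3 to 18 counts per library outside DHN.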
